A study of Mus musculus with 30 samples.

Results

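The skeletal muscle genes described here are 37 genes chosen by name, of which 27 make up or supply the muscle fiber, 6 are linked to its regeneration or atrophy and 4 encode subunits of the acetylcholine receptor. In the counts of 30 B16 tumors, 35 of the 37 averaged 10 counts per tumor or more and were tested, among 15926 genes that passed this limit of 39676 listed. Chrnd and Chrng, the delta and gamma subunits of the receptor, fell below the limit. Chrnd had a mean of 5.23 counts (range 0 to 14) and Chrng a mean of 1.63 counts (range 0 to 9). The members just above the limit were Myod1, with a mean of 16.8 counts, and Myog, with a mean of 19.9 counts.

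B16 is a mouse melanoma cell line that grows in C57BL/6 mice. The cells carried a retroviral vector with GFP alone (B16-GFP, the empty vector control) or with GFP and murine IFNα4 (B16-IFNA4) or IFNα9 (B16-IFNA9), 2 subtypes of type I interferon. Cells of all 3 types also carried the herpes simplex virus glycoprotein gB and firefly luciferase, and each type was a sorted cell population. They were injected under the skin of female C57BL/6 mice, and RNA was taken from the whole tumor 8 days later. There were 10 GFP, 10 IFNA4 and 10 IFNA9 tumors, labelled as biological replicates. The vector acts in the melanoma cells, so the mouse's own tissue in and around a tumor carried no transgene. The comparisons asked how the types differ from each other at the level of the whole tissue.

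Skeletal muscle contracts when nerve endings release acetylcholine onto receptors of the muscle membrane. The depolarization is sensed in the membrane, calcium leaves the sarcoplasmic reticulum, and thin actin filaments slide along thick myosin filaments in the repeating unit called the sarcomere. Fast and slow fibers use different genes for the same parts, and immature or injured fibers turn on embryonic and neonatal myosins and the myogenic regulators. Under the skin of a mouse lies a thin sheet of skeletal muscle, the panniculus carnosus.

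The libraries had 14598517 to 19788383 counts. Levels are given in CPM, reads counted for a gene relative to the TMM-scaled library total, and a fold change is the ratio between tumor types in one edgeR fit of all 30 tumors. A gene was called where its Benjamini-Hochberg adjusted p, taken over the whole set of 15926 genes, was under 0.05. The label of a melanoma was checked with melanocyte genes, and Tyrp1, an enzyme of pigment synthesis, stood at 1704 to 20517 CPM in the 30 tumors. Ifna4 had 81 to 188 counts in IFNA4 tumors and Ifna9 had 55 to 148 counts in IFNA9 tumors, and each had 0 counts in the other types. GFP tumor 7 stood apart with the lowest total and a TMM factor of 0.768, against 0.856 to 1.10 in the other 29 tumors. Without it the calls among the 27 fiber genes went from 2 to 2 for IFNA4 against GFP, from 19 to 21 for IFNA9 against GFP and from 22 to 22 for IFNA9 against IFNA4. Those among the 8 other members tested went from 4 to 4, from 1 to 1 and from 5 to 6.

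The sequences in front of the members' start sites were searched for short elements through which muscle regulators are known to act, and some members had none of them. RefSeq promoter windows of GRCm38.p6, with 250 bases before the start and 50 from it, were available for 29 of the 37 members. The E-box core CAGCTG, a sequence that MyoD and myogenin bind, reads the same on both strands. It occurred in 15 of 23 windows of fiber genes (65.2%), which belong to 13 of 21 fiber genes, against 16.3% of all 32851 windows. Among the other members, 3 of 8 had it, namely Chrna1, Chrng and Trim63. The CArG box, bound by serum response factor, occurred in 1.63% of all windows and in those of Acta1 and Myh4. The MEF2 site, also searched on both strands, occurred in 0.557% of all windows and in those of Ttn and Xirp2. A match is a description of letters and not a measured site. The 4 windows printed here are those of the 2 fiber genes that held both an E-box core and a CArG box, and of the 2 receptor genes whose levels parted between tumor types. Matches are in capitals, and each window runs 5′ to 3′ on the strand of its gene. Acta1 lies at chr8:123894726-123895025 on the minus strand, with the E-box core starting at base -221 and the CArG box at base -73 from the start. Myh4 lies at chr11:67237562-67237861 on the plus strand, with the CArG box at base -104 and the E-box core at base -67. Chrna1 lies at chr2:73580289-73580588 on the minus strand, with E-box cores at bases -92 and -44. Chrnb1 lies at chr11:69795888-69796187 on the minus strand, and none of the searched letters occurred in it.
Acta1: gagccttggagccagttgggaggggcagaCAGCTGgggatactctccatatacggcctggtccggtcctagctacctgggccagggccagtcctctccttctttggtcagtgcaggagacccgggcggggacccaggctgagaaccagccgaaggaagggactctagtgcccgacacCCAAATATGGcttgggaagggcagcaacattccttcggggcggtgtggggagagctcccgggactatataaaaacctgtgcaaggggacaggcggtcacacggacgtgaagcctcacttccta
Myh4: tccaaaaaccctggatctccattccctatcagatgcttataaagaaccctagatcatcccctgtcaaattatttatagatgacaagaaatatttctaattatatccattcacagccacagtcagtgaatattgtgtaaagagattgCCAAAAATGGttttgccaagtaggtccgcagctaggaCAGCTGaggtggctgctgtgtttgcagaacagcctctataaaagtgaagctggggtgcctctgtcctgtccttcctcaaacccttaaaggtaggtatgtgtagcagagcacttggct
Chrna1: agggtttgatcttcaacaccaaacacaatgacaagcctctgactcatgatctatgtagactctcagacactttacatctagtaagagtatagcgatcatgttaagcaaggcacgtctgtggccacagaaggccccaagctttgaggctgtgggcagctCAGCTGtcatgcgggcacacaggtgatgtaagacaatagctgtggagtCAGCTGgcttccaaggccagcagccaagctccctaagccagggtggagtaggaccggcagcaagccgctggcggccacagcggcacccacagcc
Chrnb1: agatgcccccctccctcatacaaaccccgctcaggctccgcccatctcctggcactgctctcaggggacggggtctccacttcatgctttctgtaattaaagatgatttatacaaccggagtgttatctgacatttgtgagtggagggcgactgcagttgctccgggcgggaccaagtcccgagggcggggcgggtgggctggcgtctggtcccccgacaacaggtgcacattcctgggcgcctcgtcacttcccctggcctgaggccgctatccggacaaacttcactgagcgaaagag

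Muscle fiber mRNA was present in every tumor and varied more than that of most genes. The 27 fiber genes summed to 6224 CPM in the lowest, 10902 CPM in the median and 30026 CPM in the highest GFP tumor. In IFNA4 tumors the sum was 7783, 15202 and 27048 CPM, and in IFNA9 tumors 3229, 7078 and 22338 CPM. The tumor with the highest sum thus had 9.3 times that of the lowest. The types overlapped, but 9 of 10 IFNA9 tumors lay between 3229 and 9848 CPM, and 8 of these 9 were below every IFNA4 tumor. The exception was IFNA9 tumor 5, at 22338 CPM. It had the highest IFNA9 value of 25 of the 27 fiber genes, as GFP tumor 3 had among GFP tumors, and IFNA9 tumor 10 had the lowest value of 25. In bulk tissue, fewer muscle fibers and less RNA per fiber cannot be told apart.

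**Figure D1:**
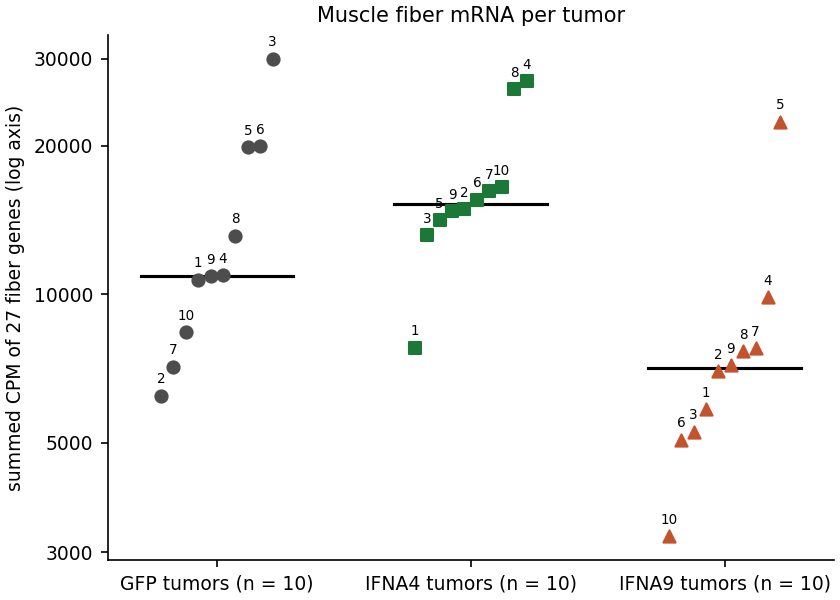
Summed CPM of the 27 fiber genes (log axis) in each of 10 GFP, 10 IFNA4 and 10 IFNA9 tumors, with the replicate number above each point and a line at the median of the type (10902, 15202 and 7078 CPM). IFNA9 tumor 5 lies among the higher tumors of the other types, and the other 9 IFNA9 tumors lie at 9848 CPM or lower.

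Fiber genes were lower in IFNA9 than in IFNA4 tumors, and against GFP tumors the result depended on the genes and tumors counted. Of the 27 fiber genes, 22 were lower in IFNA9 than in IFNA4 tumors and none was higher. Over all genes tested in this comparison, 7.25% were called lower and 10.5% higher. The log2 fold changes of the 27 genes ran from -1.35 to -0.70 with a median of -0.99, against a median of -0.01 over all genes. Against GFP tumors, 19 of the 27 were lower and none was higher, with a median of -0.78, while 28.9% of all genes were called lower and 26.9% higher. With library totals in place of TMM, 58.3% of the calls over all genes in this comparison were higher, against 48.2% with TMM, and 13 fiber genes were called lower. Of 26 further fiber genes, 3 were called lower than in GFP tumors. Most of the 27 varied together across tumors, so their calls are not independent of each other.

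Between IFNA4 and GFP tumors, most fiber genes showed no difference that passed the test. Neb and Ttn were higher in IFNA4 tumors and the other 25 were not called, with a median log2 fold change of 0.19. Over all genes, 31.3% were called higher and 34.1% lower. GFP tumor 3 weighed on both comparisons with GFP tumors. Without it, 9 instead of 19 fiber genes were lower in IFNA9 tumors and 4 instead of 2 were higher in IFNA4 tumors, since Des and Smpx were added. Without IFNA9 tumor 5, the counts of lower genes rose to 23 against GFP and to 25 against IFNA4 tumors. Of the 22 calls against IFNA4 tumors, 17 held whichever of the 30 tumors was left out, and of the 19 against GFP tumors 9 did. The comparisons share tumor types and are not independent of each other.

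**Figure D2:**
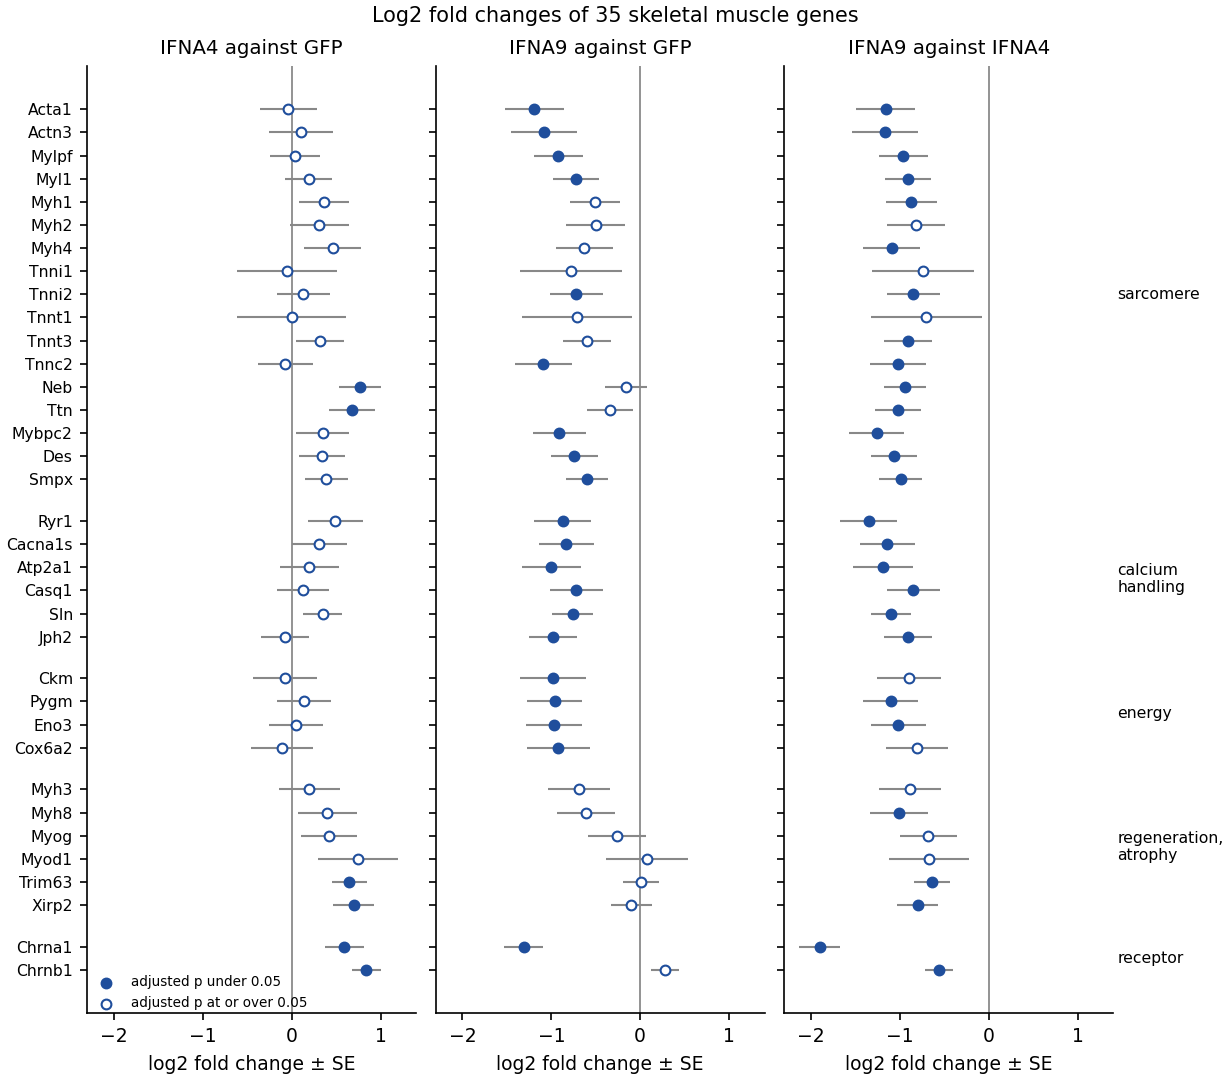
Log2 fold changes (points) with their standard errors (lines) of 35 skeletal muscle genes in the 3 comparisons, ordered by role. Filled points had an adjusted p under 0.05. In the comparison of IFNA9 with IFNA4 tumors all 35 points lie below 0 and 27 are filled, with Chrna1 farthest from 0 at -1.90.

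Of the sarcomere genes, 14 of 17 were lower in IFNA9 than in IFNA4 tumors, 9 were lower in IFNA9 than in GFP tumors, and only Neb and Ttn were called between IFNA4 and GFP tumors. Over all genes, 7.25% were called lower in the first comparison and 28.9% in the second. Acta1, skeletal muscle actin, had the highest level per length of all members, with a mean of 1312 CPM per kilobase of exon in GFP, 1279 in IFNA4 and 573 in IFNA9 tumors. In CPM its level had a lowest, median and highest value of 872, 1749 and 5097 in GFP tumors, 848, 1944 and 3154 in IFNA4 tumors, and 299, 764 and 2828 in IFNA9 tumors. All IFNA9 tumors but tumor 5 lay below the lowest tumor of both other types. Acta1 was 2.23-fold lower in IFNA9 than in IFNA4 tumors (log2 fold change -1.16 ± 0.33 SE, adjusted p = 0.0128) and 2.29-fold lower than in GFP tumors (-1.19 ± 0.33, adjusted p = 0.00281).

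Of the fast myosin heavy chains, Myh4 and Myh1 were lower in IFNA9 than in IFNA4 tumors and none was called against GFP tumors. Myh4, the heavy chain of the fastest fibers, ranged from 678 to 4633 CPM in GFP tumors (median 1975), from 1431 to 5332 CPM in IFNA4 tumors (median 2684) and from 551 to 4354 CPM in IFNA9 tumors (median 1275). It was 2.13-fold lower in IFNA9 than in IFNA4 tumors (log2 fold change -1.09 ± 0.32, adjusted p = 0.0167), with 8 of 10 tumors below the lowest IFNA4 tumor, and against GFP tumors its change of -0.63 was not called. Myh1, the chain of intermediate fast fibers, was 1.82-fold lower than in IFNA4 tumors (adjusted p = 0.033), a call lost in 7 of the 30 fits that left out 1 tumor. Myh2, the chain of fast oxidative fibers, had a log2 fold change of -0.82 against IFNA4 tumors that was not called. These genes share sequence, with 25.4% of the 50-base stretches of Myh1, 22.9% of those of Myh2 and 18.9% of those of Myh4 found in another gene, so their separate levels are uncertain. The light chains Mylpf and Myl1 were 1.95- and 1.88-fold lower in IFNA9 than in IFNA4 tumors. Of the stretches of Myl1, 11.7% also occur in the related Mylf-ps.

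Other parts of the fast sarcomere were also lower in IFNA9 tumors. Mybpc2, a fast myosin-binding protein, had medians of 263 CPM in GFP, 366 CPM in IFNA4 and 135 CPM in IFNA9 tumors. It was lower in IFNA9 tumors by a log2 fold change of -1.26 ± 0.31 against IFNA4 (adjusted p = 0.00434) and of -0.91 ± 0.30 against GFP tumors (adjusted p = 0.0122). Des, the intermediate filament desmin, fell below the IFNA4 median in 10 of 10 IFNA9 tumors, with a log2 fold change of -1.07. Actn3, a fast actinin of the Z disc, was lower by -1.17, a call lost in 3 of the 30 fits that left out 1 tumor, and Smpx, a small protein of the fiber's edge, by -0.99. Of the fast troponins, Tnni2 (-0.85), Tnnt3 (-0.91) and Tnnc2 (-1.02) were all lower in IFNA9 than in IFNA4 tumors. The call of Tnni2 was lost in 18 of these fits and that of Tnnc2 in 2. Against GFP tumors those of Tnni2 and Smpx were lost in 10 and 9 fits and with library totals (adjusted p = 0.0898 and 0.0899), and that of Tnni2 also in a fit of the 2 types alone (adjusted p = 0.0687) and with no filter (adjusted p = 0.0521). Tnnc2 was counted at 5.69 to 40.9 CPM in GFP tumors, and 74% of its exonic bases lie under Ube2c on the opposite strand, so its level is uncertain.

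Neb and Ttn encode the giant proteins nebulin along the thin filament and titin across the sarcomere. They were the only ones of the 27 fiber members called higher in IFNA4 than in GFP tumors. Of 26 further fiber genes outside the members, 5 were also called higher in this comparison, where 31.3% of all genes were. Neb (chr2:52136647-52378474, 26582 exonic bases) stood at 151 to 644 CPM in GFP tumors (median 396), at 389 to 1035 CPM in IFNA4 tumors (median 668) and at 186 to 714 CPM in IFNA9 tumors (median 313). Of the IFNA4 tumors, 5 lay above every GFP tumor and 9 above the GFP median. Neb was 1.71-fold higher in IFNA4 than in GFP tumors (log2 fold change 0.77 ± 0.24, adjusted p = 0.00645), and its change of -0.16 between IFNA9 and GFP tumors was not called. Ttn (chr2:76703980-76982547, 116825 exonic bases) had a lowest, median and highest level of 376, 918 and 1812 CPM in GFP, 809, 1501 and 2378 CPM in IFNA4, and 370, 642 and 1565 CPM in IFNA9 tumors. The ranges overlapped, with 8 of 10 IFNA9 tumors below the lowest IFNA4 tumor. Ttn was 1.6-fold higher in IFNA4 than in GFP tumors (0.68 ± 0.26, adjusted p = 0.0228). Both were lower in IFNA9 than in IFNA4 tumors, Neb by a log2 fold change of -0.94 and Ttn by -1.02. Across tumors they varied together, with r = 0.99 over the 30 deviations from the type means.

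The balance of nebulin and actin mRNA is given as a ratio. The log2 ratio of Neb to Acta1 counts was -2.27 ± 0.64 (SD, n = 10) in GFP, -1.46 ± 0.41 in IFNA4 and -1.15 ± 0.48 in IFNA9 tumors. Library scaling cancels in such a ratio, to which 0.5 counts were added. The mean ratio was higher by 0.81 in IFNA4 than in GFP tumors and by 1.12 in IFNA9 than in GFP tumors, with 10 of 10 tumors above the GFP median in both cases, and by 0.31 in IFNA9 than in IFNA4 tumors. This pair and the other gene pairs given as ratios were chosen after the values were seen, so that their differences are descriptions without a test. Neb followed the fiber mean across tumors with a slope of 0.76 in log2 CPM per unit of the mean and Acta1 with 1.07, so that this ratio also tended to be higher where the fiber level was low.

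Among fiber genes, fold changes against GFP tumors were higher for longer genes. Spearman's rho between exonic length and log2 fold change was 0.60 across the 27 fiber genes for IFNA4 against GFP and 0.41 for IFNA9 against GFP, and -0.16 for IFNA9 against IFNA4. Over 15905 genes with a known length the same values were 0.18, 0.23 and 0.02. Genes are not independent replicates, and the part of length in the differences was not tested.

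**Figure D3:**
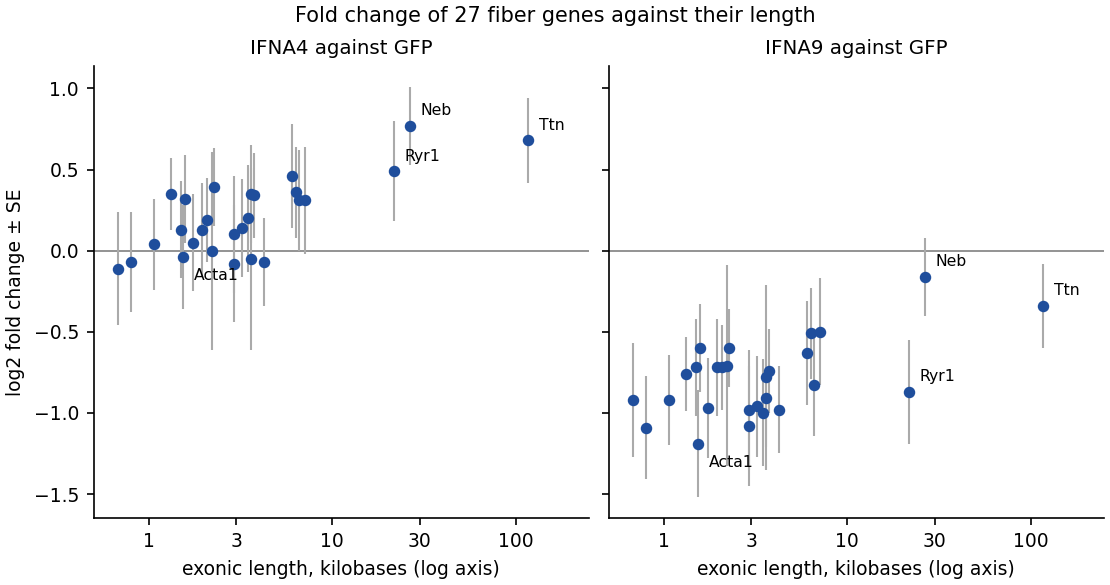
Log2 fold change with its standard error of the 27 fiber genes against their exonic length in kilobases (log axis), for IFNA4 against GFP (left) and IFNA9 against GFP tumors (right). Neb and Ttn lie highest in both panels, and Acta1 is among the short genes at -0.04 and -1.19.

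The 6 calcium handling genes were all called lower in IFNA9 tumors, with log2 fold changes from -1.35 to -0.85 against IFNA4 and of -0.72 or lower against GFP tumors. Over all genes, 7.25% and 28.9% were called lower in these comparisons. Against GFP tumors the calls of Cacna1s and Casq1 were lost with library totals (adjusted p = 0.0554 and 0.085), and leaving out 1 tumor lost that of Casq1 in 10 of 30 fits, that of Cacna1s in 2 and that of Ryr1 in 1. The call of Casq1 against GFP tumors was also lost with no filter (adjusted p = 0.0503) and in a fit of the 2 types alone (adjusted p = 0.0587). Ryr1, the channel that releases calcium from the sarcoplasmic reticulum, had a lowest, median and highest level of 59.7, 111 and 296 CPM in GFP, 86.9, 185 and 346 CPM in IFNA4, and 27.8, 61.0 and 233 CPM in IFNA9 tumors. It was 2.56-fold lower in IFNA9 than in IFNA4 tumors (adjusted p = 0.00334), with 8 of 10 tumors below the lowest IFNA4 tumor. Cacna1s, the voltage sensor that opens it, was lower by a log2 fold change of -1.14, and Jph2, which ties the membranes together, by -0.91. Atp2a1, the pump that returns calcium in fast fibers, had medians of 992, 1427 and 537 CPM in GFP, IFNA4 and IFNA9 tumors and was 2.29-fold lower in IFNA9 than in IFNA4 tumors (adjusted p = 0.0126). Casq1, the calcium store protein, was 1.8-fold lower, a call lost in 15 of the 30 fits that left out 1 tumor. It was also lost with library totals (adjusted p = 0.0549) and with no filter (adjusted p = 0.0534). On the opposite strand, other genes cover 21.9% of the exonic bases of Atp2a1 and 20% of those of Cacna1s, and whether the counting used strand is not given in the sources used here.

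Sln, sarcolipin, which slows the calcium pump, had the lowest adjusted p of the fiber genes between IFNA9 and IFNA4 tumors. It stood at 2.68 to 9.65 CPM in GFP tumors (median 5.99), at 4.96 to 10.9 CPM in IFNA4 tumors (median 7.85) and at 0.923 to 5.10 CPM in IFNA9 tumors (median 3.75). All 10 IFNA9 tumors lay below the medians of both other types, tumor 5 included. Sln was 2.15-fold lower in IFNA9 than in IFNA4 tumors (log2 fold change -1.10 ± 0.23, adjusted p = 0.00088) and 1.69-fold lower than in GFP tumors (adjusted p = 0.00569). Its deviations followed the mean of the fiber genes with r = 0.67 over 30 tumors, against 0.99 for Pygm.

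Of the 4 energy genes, Pygm and Eno3 were lower in IFNA9 than in IFNA4 tumors, where 7.25% of all genes were called lower. Pygm, muscle glycogen phosphorylase, had medians of 317, 403 and 169 CPM in GFP, IFNA4 and IFNA9 tumors and was 2.14-fold lower in IFNA9 than in IFNA4 tumors (adjusted p = 0.0119). Of the 10 IFNA9 tumors, 8 lay below the lowest IFNA4 tumor. Eno3, the muscle enolase, was 2.03-fold lower (adjusted p = 0.0187). Ckm, muscle creatine kinase, with a log2 fold change of -0.90, and Cox6a2, a muscle subunit of cytochrome oxidase, with -0.81, were not called in this comparison. Against GFP tumors all 4 were lower, with log2 fold changes between -0.98 and -0.92, where 28.9% of all genes were called lower. The calls of Ckm and Cox6a2 against GFP tumors were lost without GFP tumor 3. That of Cox6a2 was also lost with library totals (adjusted p = 0.0564) and in a fit of the 2 types alone (adjusted p = 0.0531).

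Tnni1 and Tnnt1, the slow troponins, were low in most tumors and high in a few. Tnni1 ranged from 1.13 to 22.6 CPM in GFP tumors (median 3.34), from 1.38 to 20.2 CPM in IFNA4 tumors (median 3.84) and from 1.08 to 11.4 CPM in IFNA9 tumors (median 2.34). Tnnt1 ranged from 1.96 to 42.9, from 3.09 to 32.8 and from 1.17 to 23.4 CPM. Neither was called in any comparison. In IFNA9 against IFNA4 tumors their log2 fold changes were -0.74 ± 0.57 and -0.70 ± 0.62, the widest standard errors among the members, so a change of the size seen in fast genes was not detectable. The log2 ratio of Tnni1 to its fast counterpart Tnni2 was -6.74 ± 1.27 (SD, n = 10) in GFP, -6.85 ± 1.32 in IFNA4 and -6.56 ± 0.86 in IFNA9 tumors. The means of the types thus differed by less than the SD within a type.

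The same 7 tumors were highest in 5 of the 6 slow genes Tnni1, Tnnt1, Myh7, Tnnc1, Myl2 and Myl3. They were picked by these values, so that the division is a description without a test. These were GFP tumors 5, 6 and 7, IFNA4 tumors 2 and 10, and IFNA9 tumors 4 and 5. In them Tnni1 was at least 8.94 CPM and Tnnt1 at least 12 CPM, against at most 5.64 and 10.2 CPM in the other 23 tumors. The slow genes outside the members gave the same division. Tnnc1, slow troponin C, stood at 12.2 to 22 CPM in the 7 tumors and at most at 5.64 CPM in the others. Myl2, a slow light chain, stood at 27.5 to 53.9 CPM against at most 12.6 CPM, and Myl3 at 3.48 to 9.08 CPM against at most 1.94 CPM. Myh7, the slow heavy chain, was below all 7 in 22 of the other 23 tumors, GFP tumor 3 being the exception at 18.5 CPM. Myh7, Tnnc1, Myl2 and Myl3 are also used by heart muscle. Of 6 heart genes, Nppa and Myl7 did not reach a mean of 10 counts, while Nppb, Myh6, Tnnt2 and Tnni3 had means of 209, 109.7, 106 and 28.5 counts. Myh6, a heavy chain of heart muscle, was highest in GFP tumor 5 (24.4 CPM), IFNA4 tumor 10 (23.3 CPM) and IFNA9 tumor 5 (14.9 CPM), which are among the 7 tumors. The part of these genes' source tissue in the division was not tested. Mybpc1, a slow myosin-binding protein outside these 6, was highest in GFP tumor 3 and IFNA4 tumor 4, which are not among the 7, and in IFNA9 tumor 4, which is. Deviations of the 6 from the type means correlated with a median r of 0.92 over 15 pairs.

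**Figure D4:**
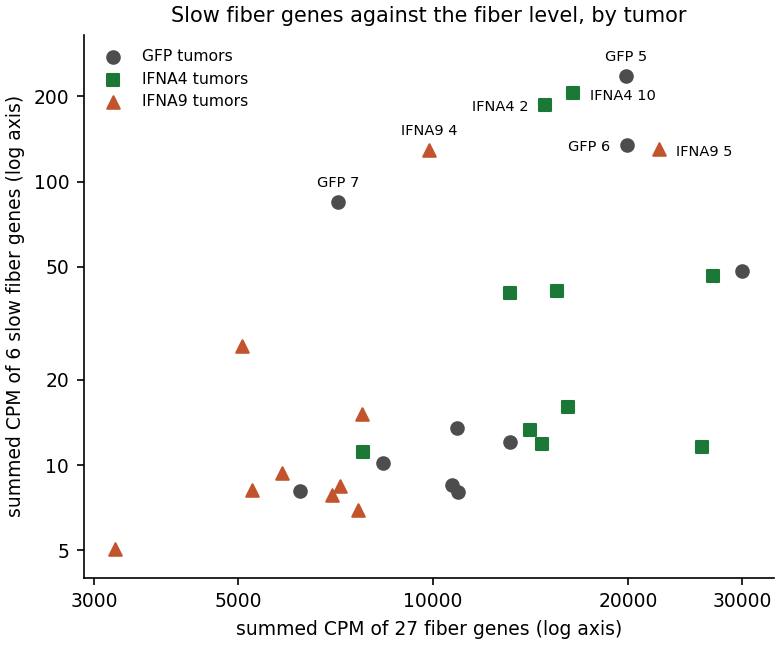
Summed CPM of 6 slow fiber genes (Tnni1, Tnnt1, Myh7, Tnnc1, Myl2, Myl3) against the summed CPM of the 27 fiber genes in each of 30 tumors (log axes), with the 7 tumors highest in slow genes named. GFP tumor 7 is high in slow genes at a fiber level of 7128 CPM, and IFNA4 tumor 8 is the reverse, with slow genes at 11.6 CPM and a fiber level of 26007 CPM.

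Most fiber genes varied together across tumors. The deviations of 25 fiber genes, without Tnni1 and Tnnt1, correlated with a median r of 0.91 over 300 pairs (range 0.54 to 0.99). Tnni1 and Tnnt1 correlated with each other (r = 0.89) and with the other fiber genes at a median r of 0.42. The points are 30 tumors, which share their libraries and scaling across genes. Within a type, the median SD of log2 CPM was 0.69 for the fiber genes and 0.34 for all genes tested. By correlation with the mean of the fiber genes, the 10 most similar genes outside the members were Tpm2 (r = 0.987), Rpl3l (0.980), Tmem38a (0.979), Rtn2 (0.972), Pgam2 (0.969), Eef1a2 (0.968), Hfe2 (0.963), Tmod4 (0.961), Dhrs7c (0.957) and Ak1 (0.955). Tpm2, a tropomyosin, was lower in IFNA9 than in IFNA4 tumors by a log2 fold change of -0.78 (adjusted p = 0.0435). All 10 except Dhrs7c were called lower there, where 7.25% of all genes were. The 10 were picked for varying with the fiber genes, so this count is not independent of theirs. Pgam2 and Tmod4 are also among the further fiber genes counted next.

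Other fiber genes, from a list outside the members, were counted in the same way. Of 32 named, 26 were in the table and all 26 passed the count limit. Of these, 19 were lower and none higher in IFNA9 than in IFNA4 tumors, with a median log2 fold change of -0.86, where 7.25% of all genes were called lower. Pvalb, the calcium buffer parvalbumin, changed by -0.98 (adjusted p = 0.033), Mybpc1 by -0.86 (adjusted p = 0.0118) and Actn2, an actinin of the Z disc, by -0.82 (adjusted p = 0.0165). Against GFP tumors 3 of the 26 were lower in IFNA9 tumors, with a median of -0.47, and 5 were higher in IFNA4 tumors. Over all genes, 28.9% were called lower in the first comparison and 31.3% higher in the second, so that both counts lay below the share of all genes.

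The genes of regeneration, atrophy and the receptor were counted apart from the fiber genes. In IFNA4 tumors, 4 of the 8 tested were higher than in GFP tumors and none was lower, with a median log2 fold change of 0.62, where 31.3% of all genes were called higher. In IFNA9 tumors only Chrna1 was lower than in GFP tumors and none was higher, with a median of -0.18, where 28.9% of all genes were called lower. Between IFNA9 and IFNA4 tumors 5 of the 8 were lower and none higher, with a median of -0.74, where 7.25% of all genes were called lower. Without IFNA9 tumor 5, Myh3 and Myh8 were also lower than in GFP tumors, which made 3 calls. Without IFNA4 tumor 8, the 5 calls against IFNA4 tumors became 3, since those of Myh8 and Trim63 were lost.

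The developmental myosins varied with the fiber genes from tumor to tumor. Myh8, the neonatal heavy chain, ranged from 72.3 to 559 CPM in GFP tumors (median 210), from 158 to 528 CPM in IFNA4 tumors (median 317) and from 55.8 to 493 CPM in IFNA9 tumors (median 131). It was 2.02-fold lower in IFNA9 than in IFNA4 tumors (adjusted p = 0.0306), a call lost in 7 of the 30 fits that left out 1 tumor, and followed the fiber mean with r = 0.95. Of its 50-base stretches, 12.1% also occur in other genes. Myh3, the embryonic heavy chain, had medians of 17.4, 26.7 and 12.1 CPM in GFP, IFNA4 and IFNA9 tumors and followed the fiber mean with r = 0.93. It was called in no comparison of the main fit. Against IFNA4 tumors it was called lower in IFNA9 tumors with DESeq2 (adjusted p = 0.0348) and limma (adjusted p = 0.0363). It was also called lower there in a fit of the 2 types alone (adjusted p = 0.0312) and with a replicate block (adjusted p = 0.0339). Per length, the mean level of Myh3 in GFP tumors was 3.73 CPM per kilobase and that of Myh4 was 377 CPM per kilobase.

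The myogenic regulators had the fewest counts of the tested members, and neither was called. Myog, myogenin, had levels of 0.0893 to 1.68 CPM in GFP, 0.534 to 2.10 CPM in IFNA4 and 0.185 to 1.49 CPM in IFNA9 tumors. All 10 IFNA9 tumors lay below the IFNA4 median, but the log2 fold change of -0.68 ± 0.32 was not called. Myod1, MyoD, ranged from 0.107 to 2.51 CPM in GFP, from 0.248 to 2.32 CPM in IFNA4 and from 0.159 to 3.23 CPM in IFNA9 tumors, and was not called in any comparison. Without GFP tumor 3 Myod1 was higher in IFNA4 than in GFP tumors, and without IFNA9 tumor 5 it was lower in IFNA9 than in IFNA4 tumors. Their deviations followed the fiber mean with r = 0.66 for Myod1 and 0.34 for Myog, and did not follow each other (r = -0.05).

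Trim63 and Xirp2 were higher in IFNA4 tumors than in both other types. Trim63, the ubiquitin ligase MuRF1 of muscle atrophy, stood at 43.3 to 139 CPM in GFP tumors (median 81.9), at 79.1 to 212 CPM in IFNA4 tumors (median 125) and at 58.2 to 160 CPM in IFNA9 tumors (median 78.4). It was 1.56-fold higher in IFNA4 than in GFP tumors (log2 fold change 0.65 ± 0.20, adjusted p = 0.00584) and 1.56-fold lower in IFNA9 than in IFNA4 tumors (adjusted p = 0.0246). Of the IFNA4 tumors, 3 lay above every GFP tumor, and 5 IFNA9 tumors lay below every IFNA4 tumor. Between IFNA9 and GFP tumors its change was 0.01 ± 0.20. Xirp2, an actin-binding protein that marks damaged sarcomeres, had medians of 212, 344 and 184 CPM in GFP, IFNA4 and IFNA9 tumors. The types overlapped, with 7 IFNA9 tumors below every IFNA4 tumor. Xirp2 was 1.62-fold higher in IFNA4 than in GFP tumors (adjusted p = 0.0102) and 1.74-fold lower in IFNA9 than in IFNA4 tumors (adjusted p = 0.0161). Its change of -0.10 ± 0.23 between IFNA9 and GFP tumors was not called. It followed Neb and Ttn with a median r of 0.96.

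The 2 receptor members that could be tested differed in IFNA9 tumors. There Chrna1 was lower than in both other types and Chrnb1 was lower than in IFNA4 tumors. Chrna1 (chr2:73563215-73580338), the alpha subunit that binds acetylcholine, had 4.43, 7.02 and 15.9 CPM in the lowest, median and highest GFP tumor, 6.57, 12.1 and 17.4 CPM in IFNA4 tumors, and 1.48, 3.06 and 5.87 CPM in IFNA9 tumors. All 10 IFNA9 tumors, with 24 to 109 counts, lay below all 10 IFNA4 tumors, with 116 to 298 counts. Chrna1 was the only member of the 35 without overlap in this comparison, while 0.741% of all genes were lower without overlap. Against GFP tumors no member was without overlap, against 3.35% of all genes, and 9 of 10 IFNA9 tumors lay below the lowest GFP tumor for Chrna1. Chrna1 was 3.74-fold lower in IFNA9 than in IFNA4 tumors (log2 fold change -1.90 ± 0.23, adjusted p = 7.11e-07) and 2.49-fold lower than in GFP tumors (-1.31 ± 0.22, adjusted p = 1.57e-05). Without IFNA9 tumor 5 these log2 fold changes were -1.87 and -1.30, while those of Acta1 went from -1.16 to -1.54 and from -1.19 to -1.59. In IFNA4 tumors Chrna1 was 1.5-fold higher than in GFP tumors (adjusted p = 0.0179).

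Chrnb1 (chr11:69784036-69795943), is the gene of the beta subunit of the same receptor. It had 2.95, 5.78 and 8.95 CPM in the lowest, median and highest GFP tumor, 8.51, 10.6 and 13.2 CPM in IFNA4 tumors, and 5.48, 6.95 and 10.4 CPM in IFNA9 tumors. All 10 IFNA4 tumors were above the GFP median and 7 were above the highest GFP tumor. Chrnb1 was 1.79-fold higher in IFNA4 than in GFP tumors (log2 fold change 0.84 ± 0.16, adjusted p = 4.5e-05) and 1.47-fold lower in IFNA9 than in IFNA4 tumors (adjusted p = 0.0144). Its change of 0.28 ± 0.16 between IFNA9 and GFP tumors was not called. Of the untested members, Chrnd had 54, 70 and 33 counts summed over the GFP, IFNA4 and IFNA9 tumors, and Chrng had 9, 29 and 11 counts. Chrne, the epsilon subunit, is outside the members and is named after its values were seen. With a mean of 11.8 counts, it was higher in IFNA4 than in GFP tumors (log2 fold change 1.00, adjusted p = 0.00688). Its changes of 0.19 in IFNA9 against GFP and of -0.81 in IFNA9 against IFNA4 tumors were not called.

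**Figure D5:**
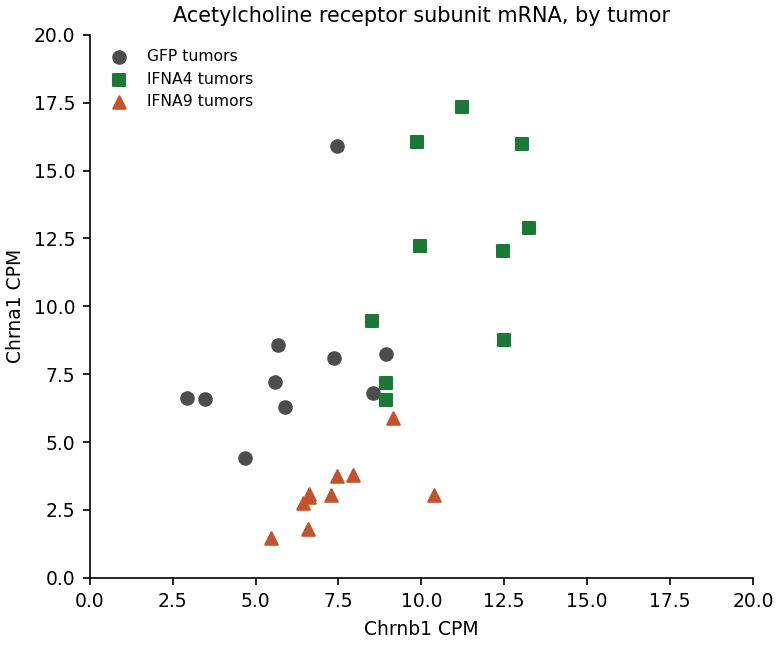
CPM of Chrna1 against CPM of Chrnb1 in each of 10 GFP, 10 IFNA4 and 10 IFNA9 tumors. IFNA9 tumors lie at 1.48 to 5.87 CPM of Chrna1 over a range of Chrnb1, 5.48 to 10.4 CPM, that overlaps both other types.

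The ratio of the 2 subunits, chosen after the levels were seen, is given as a description. The log2 ratio of Chrna1 to Chrnb1 counts ran from -0.32 to 1.15 in GFP, from -0.51 to 0.70 in IFNA4 and from -1.87 to -0.64 in IFNA9 tumors. The means were 0.38 ± 0.53, 0.07 ± 0.42 and -1.29 ± 0.41 (SD, n = 10 each). All 10 IFNA9 tumors lay below all tumors of both other types, and IFNA9 tumor 5, the highest of its type in fiber genes, stood at -1.75. Both genes followed the fiber mean across tumors with slopes of 0.39 for Chrna1 and 0.44 for Chrnb1. Set against Pygm, a fiber gene with a steeper slope of 1.06, the order was another one. The mean log2 ratio of Chrna1 to Pygm was different in IFNA9 tumors by -0.32 from GFP and by -0.68 from IFNA4 tumors, and that of Chrnb1 to Pygm was higher by 1.35 and by 0.68. That of Trim63 (slope 0.35) to Pygm was higher by 1.05 and by 0.58.

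Among further genes of the neuromuscular junction and of regenerating or denervated muscle, 9 of 16 named were tested. In IFNA4 against GFP tumors 5 were higher and 1 lower, where 31.3% of all genes were called higher and 34.1% lower. In IFNA9 against GFP tumors 2 were higher and 2 lower, where the shares of all genes were 26.9% and 28.9%. In IFNA9 against IFNA4 tumors 3 were lower and none higher, where 7.25% of all genes were called lower, and the median log2 fold change was -0.74. The 3 of the highest mean CPM were Runx1, a transcription factor that is also widely made outside muscle, Csrp3, a Z disc protein, and Rapsn, which clusters the receptor. In IFNA4 against GFP tumors their log2 fold changes were 0.60 (adjusted p = 3.33e-05), 0.80 (adjusted p = 0.00239) and -2.17 (adjusted p = 1.08e-08). Gadd45a, close behind Rapsn in mean CPM and named after its values were seen, was called in no comparison. Rapsn stood at 7.93 to 43.2 CPM in GFP tumors (median 21.3) and at 2.77 to 8.03 CPM in IFNA4 tumors (median 4.15). It was also lower in IFNA9 than in GFP tumors (-1.59, adjusted p = 3.2e-06). Its highest GFP tumor was tumor 7, which had a fiber sum of 7128 CPM and the highest melanocyte sum of its type, 24790 CPM. Which cells made the Rapsn mRNA was not tested. Musk, the kinase that organizes the junction, was picked out after its values were seen. It had medians of 0.798, 3.12 and 1.58 CPM in GFP, IFNA4 and IFNA9 tumors, with a log2 fold change of 1.95 for IFNA4 against GFP (adjusted p = 2.8e-07), of 0.96 for IFNA9 against GFP (adjusted p = 0.00331) and of -0.99 for IFNA9 against IFNA4 (adjusted p = 0.00622). Pax7, Mymk and Mymx, of muscle stem cells and their fusion, were below the count limit.

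Markers of other tissues were read for the same tumors. White fat genes summed to 558 to 1525 CPM in GFP, 734.5 to 1875 CPM in IFNA4 and 525 to 2259 CPM in IFNA9 tumors, and 0 of 5 were called in each comparison. Their median log2 fold change between IFNA9 and IFNA4 tumors was -0.14, with Fabp4, a fatty acid binding protein, at -0.17 and Adipoq, adiponectin, at -0.29. Schwann cell genes summed to 132 to 291, 102 to 248 and 108 to 241 CPM in the same order. Of these, 0 of 5 were called between IFNA9 and IFNA4 tumors, with a median of -0.54, and 1 was higher and 1 lower in each comparison with GFP tumors. Smooth muscle genes summed to 181 to 480, 117 to 181 and 68.8 to 193 CPM, with 0 of 6 called between IFNA9 and IFNA4 tumors (median -0.23) and 2 lower in each comparison with GFP tumors. Of 7 epidermal genes, Lor, loricrin of the horny layer, was called lower in IFNA9 than in IFNA4 tumors and was named after its values were seen. In IFNA4 against GFP tumors 3 of the 7 were higher, Krt10 among them (log2 fold change 0.91, adjusted p = 0.00198), and in IFNA9 against GFP tumors 1 was higher and 1 lower. Their sums were 783 to 6000, 4899 to 7872 and 1435 to 6661 CPM. The shares of all genes called higher and lower were 31.3% and 34.1% in IFNA4 against GFP tumors. They were 26.9% and 28.9% in IFNA9 against GFP tumors, and 10.5% and 7.25% in IFNA9 against IFNA4 tumors.

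The melanocyte and leukocyte lists differed between tumor types. All 4 melanocyte genes were lower in IFNA4 and in IFNA9 than in GFP tumors, and 3 were higher in IFNA9 than in IFNA4 tumors, with sums of 7608 to 24790 CPM in GFP, 2280 to 3783 CPM in IFNA4 and 3505 to 9256 CPM in IFNA9 tumors. All 4 leukocyte genes were higher in both interferon types than in GFP tumors, with sums of 77.6 to 365, 478 to 1141 and 333 to 765 CPM, and none was called between IFNA9 and IFNA4 tumors. Over all genes, 31.3% were called higher and 34.1% lower in IFNA4 against GFP tumors, and 26.9% and 28.9% in IFNA9 against GFP tumors. Between IFNA9 and IFNA4 tumors these shares were 10.5% and 7.25%. Of 5 fibroblast genes, 2 were higher in each comparison with GFP tumors and none was called between IFNA9 and IFNA4 tumors. Of the 4 heart genes tested, 2 were higher and 1 lower in each comparison with GFP tumors and none was called between IFNA9 and IFNA4 tumors.

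Over 30 deviations from the type means, the fiber level correlated with Schwann cell genes at r = 0.79, white fat genes at 0.76, smooth muscle genes at 0.72, fibroblast genes at 0.38, epidermal genes at 0.37, leukocyte genes at 0.01 and melanocyte genes at -0.25. With the library total it was 0.23. The values within types differed for some lists. For leukocyte genes r was 0.45 in GFP, -0.82 in IFNA4 and -0.29 in IFNA9 tumors, and for melanocyte genes it was -0.50, -0.03 and -0.06, each over 10 tumors. IFNA9 tumor 5, the highest of its type in fiber genes, was also the highest in white fat, Schwann cell and smooth muscle genes, and the lowest in leukocyte genes. Tumor 10, the lowest IFNA9 tumor in fiber genes, was the lowest in white fat, smooth muscle, epidermal and fibroblast genes. It was the highest IFNA9 tumor in melanocyte genes. The part of these tissues in the differences of the muscle genes was not tested.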

How the data were processed

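RNA-seq measured gene expression in 30 whole B16 tumors, 10 each of B16-GFP, B16-IFNA4 and B16-IFNA9, grouped by the labels. RNA was extracted with TRIzol and RNeasy, libraries were TruSeq stranded mRNA, and single-end reads of 50 bases came from an Illumina HiSeq. The authors deposited raw gene counts per tumor in a table. Reads were checked with FastQC 0.11.3 and aligned with HISAT2 2.0.4 per the submitters' processing notes, and counted with summarizeOverlaps. The study's methods name the genome mm11 and the processing notes mm10, and the annotation release and strand setting are not given in the sources used here. Of 39676 identifiers, 39495 were in GENCODE M21 (GRCm38), from which names, lengths and coordinates were taken.

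From the counts, the 15926 genes averaging 10 or more were kept. edgeR 4.0.16 in R 4.3.3 fitted all 30 tumors together with TMM scaling, the quasi-likelihood test and Benjamini-Hochberg adjustment over all 15926 genes, at a threshold of 0.05. The common biological coefficient of variation was 0.281. Levels and correlations used CPM and log2 CPM with a prior count of 2. Every member that passed the count limit is named with its group, and of other lists the calls and up to 3 genes of the highest mean level are given. The 10 genes most correlated with the fiber mean were also named by rule. Exceptions chosen after values were seen are marked. Log2 ratios of gene pairs were computed from the counts in Python 3.11.15, with 0.5 counts added. The members and lists were chosen with earlier results of these data known.

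Alternatives were DESeq2 size factors, library totals, DESeq2 1.42.0, limma 3.58.1, robust dispersions, 2 other filters, fits of 2 types, a replicate block and leaving out each tumor. The fitting code was tested on simulated data. Between tumors of a type, the lowest chi-square per gene was 14.1, so none was a duplicate. Depth was 14598517 to 19788383 counts per tumor, which leaves the members below the count limit untested.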

Additional observations from a re-analysis of the deposited data

Results flagged for a closer look

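Within each tumor type, the highest and lowest tumor of each member tested and of the mean of the fiber genes, in log2 CPM, were set against the gap to the nearest tumor (Dixon's criterion). Of 108 groups of values, 12 passed, where chance gives about 1 in 20 (5.4). In IFNA9 tumors, tumor 5 stood apart as the highest for Acta1 (11.47), Actn3 (9.06), Mylpf (9.83), Mybpc2 (8.97), Atp2a1 (11.12), Casq1 (8.53), Jph2 (6.16), Pygm (9.27) and Myod1 (1.74). These values belong to the same tumor, and its next neighbor stood at 9.73 for Acta1 and at 4.78 for Jph2. For Sln, IFNA9 tumor 10 stood apart as the lowest, at 0.06. For Myod1, IFNA4 tumor 1 was the lowest, at -1.45. For Chrna1, GFP tumor 3 was the highest, at 4.00.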

How the results depend on the processing

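Leaving out 1 of 30 tumors gave 2 to 4 fiber genes for IFNA4 against GFP, 9 to 23 for IFNA9 against GFP and 17 to 25 for IFNA9 against IFNA4. The 4 and the 9 came without GFP tumor 3, the 17 without IFNA4 tumor 4, and the 23 and the 25 without IFNA9 tumor 5. Of the 8 regeneration and receptor genes, 4 to 5, 1 to 3 and 3 to 7 were called (3 without IFNA9 tumor 5 against GFP, and 3 without IFNA4 tumor 8 against IFNA4), and over all genes 9949 to 10547, 8412 to 9195 and 2106 to 3801. With 9 other settings the fiber calls were 2, 13 to 20 and 20 to 25. Library totals gave the 13 and raised the median log2 fold change of all genes by 0.10 for IFNA9 against GFP. A fit of 2 types alone called 4338 genes between IFNA9 and IFNA4 tumors, against 2833, and the cause was not tested.

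Of 105 member fold changes, 8 lost a call, 5 gained one and 8 changed sign under some of these settings, all 8 of the last without a call. The calls gained were all lower in IFNA9 tumors, for Myh2, Ckm, Cox6a2 and Myh3 against IFNA4 and for Tnnt3 against GFP tumors. For IFNA4 against GFP tumors, log2 fold changes turned positive with library totals for Acta1 (0.07), Tnni1 (0.03), Tnnt1 (0.06), Tnnc2 (0.03), Jph2 (0.03) and Ckm (0.04), with limma for Acta1 (0.07), Tnni1 (0.13), Tnnt1 (0.29), Tnnc2 (0.01), Ckm (0.07) and Cox6a2 (0.05), and for Tnnt1 with DESeq2 size factors (0.01), DESeq2 (0.01) and no filter (0.02). With the replicate block they were 0.10 for Acta1, 0.14 for Tnni1, 0.29 for Tnnt1, 0.04 for Tnnc2, 0.11 for Ckm and 0.09 for Cox6a2, and Myod1 for IFNA9 against GFP was -0.04.

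Leaving out single tumors, the sign for IFNA4 against GFP changed within -0.14 to 0.23 for Acta1, -0.07 to 0.37 for Actn3, -0.08 to 0.26 for Mylpf, -0.46 to 0.44 for Tnni1, -0.37 to 0.56 for Tnnt1, -0.20 to 0.14 for Tnnc2, -0.02 to 0.29 for Casq1, -0.18 to 0.09 for Jph2, -0.22 to 0.24 for Ckm, -0.07 to 0.27 for Eno3 and -0.22 to 0.16 for Cox6a2. For IFNA9 against GFP it changed within -0.47 to 0.48 for Myod1, -0.13 to 0.11 for Trim63 and -0.23 to 0.03 for Xirp2. Leaving out tumors was added for the pair ratios after seeing the data, and only the ratio of Tnni1 to Tnni2 changed sign, within -0.35 to 0.15 and -0.01 to 0.38 in the comparisons with GFP.

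Tumors with the same replicate number showed no general likeness across types. This cannot exclude a shared batch or experiment, and the labels name none. Of 30 pairs with the same number, 4 had deviations correlated above 0.1 (range -0.267 to 0.302). With the number as a replicate block, 2, 20 and 25 fiber genes, 4, 1 and 6 regeneration and receptor genes, and 10249, 8626 and 2535 of all genes were called in the 3 comparisons, and 58 member calls in all against 53.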
